A study of Saccharomyces cerevisiae with 6 samples.

Results

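The sample described here is RNA of Saccharomyces cerevisiae, baker's yeast, taken 10 min after a culture grown without oxygen was aerated, hybridised on 2-colour microarrays against a pool of RNA from cultures before aeration. All genes with a value in that sample were kept, named by the platform's gene symbol, with features of the same gene averaged. This gave 6091 genes, of 6470 with a value in any sample of the series, and 560 of the 6091 are features without a symbol. Cells had grown to exponential phase in sealed bottles of synthetic complete medium purged with nitrogen and treated with sodium dithionite, with ergosterol and unsaturated fatty acids added, and these conditions were shared by the aerated flasks and the pool. The strain is not given in the sources used here. Other flasks were aerated for 5, 20, 60 or 120 min, 1 sample each, and the pool was also hybridised against itself. Per the design text, the values of the 10 min sample condense a dye-swap pair of arrays, whereas the self-hybridisation is 1 array.

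The sample has no replicate, so no gene has an error or a test, and genes are described by their value and by whether they lay at least 2-fold from the pool, a log2 ratio of 1 or more or of -1 or less. Log2 ratios are of aerated over anaerobic RNA. That direction is likely from the sample titles and is not settled by the labels, which list both dyes for both channels and name the aerated RNA as channel 2 for the samples of 5 and 10 min but as channel 1 for 20, 60 and 120 min. Were the 10 min ratios turned round, every higher and lower given here would swap, the counts included, and were a single time turned, its signs would not compare with those of the others. The deposited values were read as natural logs from their lowest value alone, as no label gives the base. All aerated times share the pool, so values at 5 and 20 min are given beside those at 10 min and are no independent support for them. The 5 min sample carries a description that repeats that of the self-hybridisation. A ratio gives no level of a transcript, and fewer cells and less RNA per cell cannot be told apart.

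Yeast senses oxygen largely through heme and sterols, both of which need oxygen for their synthesis. Without them the hypoxic genes are read, among them cell wall mannoproteins of the DAN/TIR family and genes repressed by Rox1, and the respiratory genes are read less. Molecular oxygen also brings superoxide and hydrogen peroxide, against which the factors Yap1 and Skn7 activate peroxidases, thioredoxin and superoxide dismutase, and it changes the state in which copper and iron are found. Gcn4 and Met4 are the activators of amino acid and sulfur synthesis genes.

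After 10 min, 134 genes were at least 2-fold higher than the pool (2.20% of the 6091) and 168 were at least 2-fold lower (2.76%), together 302 genes (4.96%). In the self-hybridisation 141 of 3521 genes (4.00%) lay as far from 0, of which 36 were higher and 105 lower. The bulk of the genes was as wide in both samples. Their median absolute deviations were 0.243 at 10 min and 0.241 in the self-hybridisation, and 3045 genes (50%) were above 0 at 10 min. The 10 min values condense 2 arrays and the self-hybridisation is 1 array, so these spreads and counts are not like for like. The upper tail reached farther at 10 min. There the 1st and 99th percentiles were -1.62 and 1.33, against -1.54 and 1.03 in the self-hybridisation. At 10 min 16 genes were at a log2 ratio of 2 or higher and 31 at -2 or lower, against 2 and 14 of the 3521 in the self-hybridisation. The highest ratios were 5.56 and 2.46, whereas the lowest was -4.61 at 10 min, for a feature without a symbol, and -6.64 in the self-hybridisation.

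**Figure D1:**
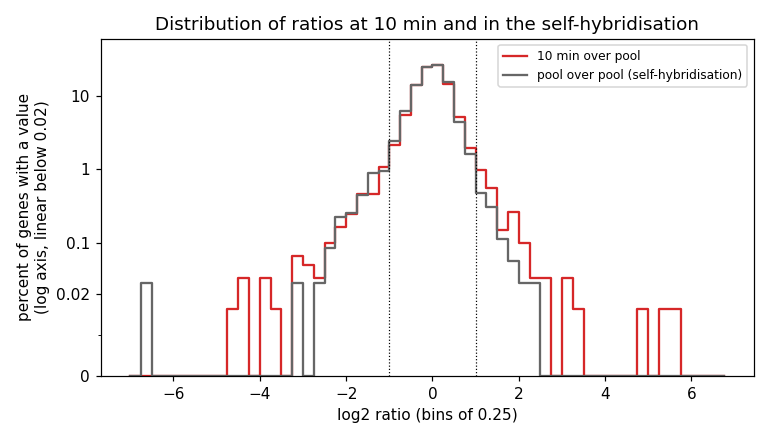
Percent of genes with a value (y axis, log scale, linear below 0.02) in bins of the log2 ratio (x axis), for the 10 min sample (red) and the self-hybridisation (grey), with dotted lines at 2-fold. The centres lie on each other, with a median absolute deviation of 0.243 and 0.241, and the highest ratios, up to 5.56, belong to the 10 min sample.

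The same count was uneven over genes with few measurements. Of 54 genes with a value at 2 or fewer of the other 4 aerated times, 31 were at least 2-fold from the pool, 29 of them lower. Among the 5771 genes measured at all 4, 119 were higher and 120 lower (4.14%). Genes with a self-hybridisation value numbered 3510, of which 63 were higher and 82 lower (4.13%), against 71 and 86 of the 2581 without one (6.08%). Of the 63 higher and 82 lower genes with a self-hybridisation value, 5 were also 2-fold from 0 there, where 4.00% of the 3521 genes were. For the 16 genes with a pair of features measured at 10 min, the median absolute difference of the log2 ratios of the pair was 0.132, the largest was 0.547 (MMS4), and the SD of 1 feature was 0.185. In the self-hybridisation 6 such pairs gave an SD of 0.347. Spot intensities were not used here, and the part of weak signal in these counts was not tested.

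**Figure D2:**
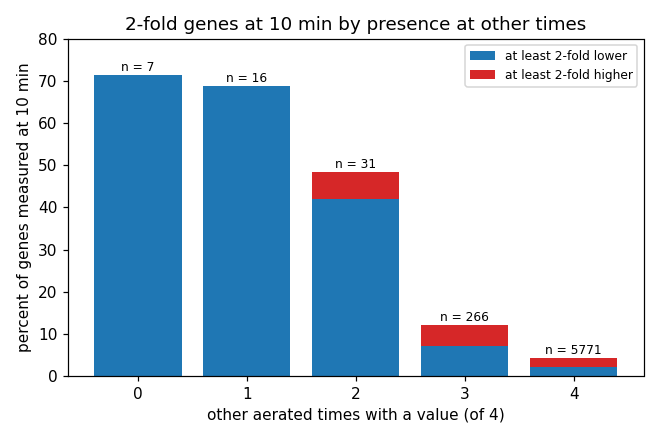
Percent of genes measured at 10 min that lay at least 2-fold lower (blue) or higher (red) than the pool (y axis), by the number of the other 4 aerated times with a value (x axis). The bars stand at 71.4% of 7 genes with no other value (5 genes, all lower), 68.8% of 16, 48.4% of 31, 12% of 266 and 4.14% of 5771 genes measured at all 4.

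With that direction, the copper-binding metallothionein genes were the highest of all. CUP1-1 stood at 5.56, a 47.2-fold ratio, and CUP1-2 at 5.47. CUP1-1 was at 0.89 at 5 min, 3.86 at 20 min and -0.38 in the self-hybridisation, and CUP1-2 at 0.77, 3.59 and -0.54. The largest ratio of both was thus that of 10 min among these values. The genes are near-identical copies, so their features cannot be taken as separate measurements. They lie beside each other in the genome with YHR054C between them, and this run of neighbours with CIC1 (1.07), YHR054C (1.86) and RSC30 (1.18) was at least 2-fold higher throughout. Whether other features of this run share signal was not checked. CIC1 encodes a factor of ribosome assembly and RSC30 a subunit of the RSC chromatin remodeller.

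The other copper genes ranged from -2.16 to 0.74. CTR1, the high-affinity copper importer of the plasma membrane, was lowest, beside -1.15 at 5 min and -2.42 at 20 min. It was the only one of the 13 genes of copper binding and uptake at least 2-fold lower (7.69%, where 2.76% of all genes were). The metallothionein pair were the only ones at least 2-fold higher (15.4%, where 2.20% of all genes were). FRE1, a reductase that prepares copper and iron for uptake, stood at -0.57. The chaperone genes for copper were not alike, since COX17 (delivery to cytochrome oxidase) was at 0.74 and ATX1 (delivery to the secretory pathway) at -0.04. CCC2, the pump that ATX1 feeds, was at 0.72, and CRS5, a metallothionein gene apart from CUP1, at 0.63. The regulators were close to the pool, with CUP2, the activator of CUP1, at -0.32, and MAC1, the activator of CTR1, at 0.11. CTR2, CTR3 and FRE7 lay at 0.05, -0.04 and -0.09.

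The iron uptake genes were led by the pair that makes up the high-affinity ferrous iron system, which needs copper. FET3, a multicopper oxidase, was at 2.26 and FTR1, its permease partner, at 1.91, against -0.07 and 0.95 at 5 min and 1.78 and 1.43 at 20 min. MRS4, a mitochondrial iron carrier, was at 1.05 (1.46 at 5 min). Of the 24 measured genes of iron uptake and sparing, these 3 were at least 2-fold higher (12.5%, where 2.20% of all genes were). FIT3, a cell wall protein that holds siderophores, was the only one as far below the pool, at -1.57, after 1.44 at 5 min. TIS11, an mRNA-binding protein that restrains iron-using functions, was at 0.99, while the self-hybridisation gave -1.44 for it. AFT1, the activator of the iron regulon, was at 0.72. In iron-sulfur cluster assembly ISU2, a scaffold gene, was at 1.68 and ISA1, a later-acting factor, at -1.28, and the median of 18 genes was -0.07 (0.31 with the self-hybridisation subtracted, over the genes measured in both).

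Peroxide and superoxide defence came next. GPX2, a glutathione-type peroxidase, was at 4.85 (28.9-fold) after 2.72 at 5 min and before 5.57 at 20 min, with no value in the self-hybridisation. In the thioredoxin and peroxiredoxin system 6 of 13 measured genes (46.2%) were at least 2-fold higher and 0 were lower, where 2.20% of all genes were higher. They were SRX1, the enzyme that repairs oxidised peroxiredoxin, at 2.15, the peroxiredoxins TSA1, AHP1 and PRX1 at 1.43, 1.36 and 1.25, the thioredoxin reductase TRR1 at 1.36, and the thioredoxin TRX2 at 1.25. At 20 min 5 of them had a larger ratio than at 10 min (TSA1, 2.25), and SRX1 a smaller one, 1.33. The others of the list lay within 0.5 of 0: MXR1 at -0.43, TRR2 at -0.26, TSA2 at -0.09, MXR2 at -0.09, TRX1 at -0.07, TRX3 at 0.13 and DOT5 at 0.21. Cytosolic TRX1 and TRX2, which do the same chemistry, thus stood at -0.07 and 1.25, and mitochondrial TRR2 and cytosolic TRR1 at -0.26 and 1.36. TSA2 had been at 1.64 at 5 min.

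Among superoxide dismutases and catalases, SOD1, the copper and zinc enzyme of the cytosol, was at 1.48 and SOD2, the manganese enzyme of mitochondria, at 0.87. CTA1, the peroxisomal catalase, was at 1.22 and CTT1, the cytosolic one, at 0.00. CCS1, the chaperone that gives SOD1 its copper, was at 0.47 and CCP1, cytochrome c peroxidase, at 0.27. YHB1, a flavohemoglobin that removes nitric oxide with oxygen, was at -0.80. SOD1 and CTA1 were thus the 2-fold members, 2 of 7 measured (28.6%, where 2.20% of all genes were higher).

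In the glutathione system 2 of 20 genes (10%, where 2.20% of all genes were) were at least 2-fold higher, GPX2 and ECM4, a glutathione transferase, at 1.23. GSH1, the first enzyme of glutathione synthesis, was just within 2-fold at 0.98, and GSH2, the next step, at 0.15. The sister peroxidases of GPX2 were near the pool, with HYR1 (also named GPX3), the peroxide sensor of Yap1, at 0.13 and GPX1 at -0.31. The glutaredoxins ran from GRX4 at -0.56 to GRX2 at 0.49, with GRX8, GRX5, GRX3, GRX6, GRX1 and GRX7 at -0.45, -0.19, -0.11, -0.01, 0.12 and 0.28. The remaining genes were GTO1 (-0.75), GTO3 (-0.13), GTT2 (0.30), GTT1 (0.33), GLR1 (-0.08), the reductase that recycles glutathione, and YCF1 (0.41), a vacuolar pump for glutathione conjugates. YAP1 itself was at 1.16 and SKN7 at 0.82. Of 22 further genes known as Yap1 targets, 3 (13.6%, where 2.20% of all genes were) were at least 2-fold higher, and the median of the list was 0.05. All 3 are oxidoreductase genes: YML131W at 1.83, GRE2 at 1.44 and OYE3 at 1.15. Aryl-alcohol dehydrogenase genes of that list did not stand high, with AAD6, AAD4, AAD14, AAD3, AAD15 and AAD10 between 0.15 and -0.92.

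**Figure D3:**
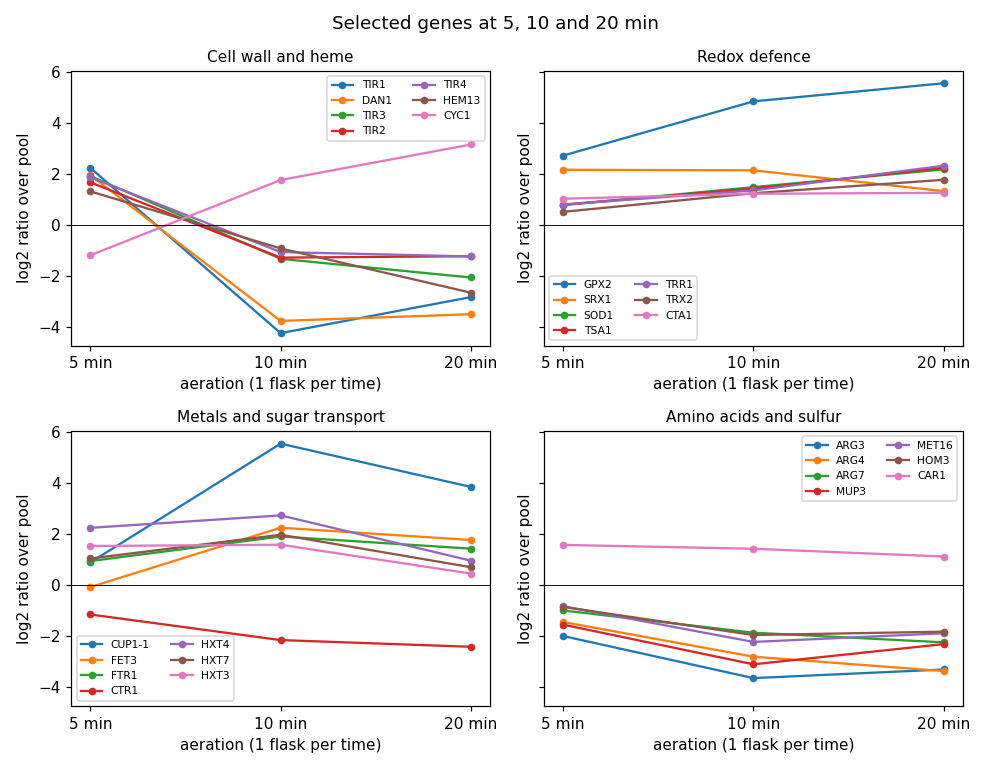
Log2 ratio over the anaerobic pool (y axis) at 5, 10 and 20 min (x axis, 1 flask per time, lines join the same gene) for 28 selected genes in 4 panels: hypoxic and heme-related genes, antioxidant genes, copper, iron and hexose transport genes, and amino acid genes. The genes were chosen with their values known. TIR1 and DAN1 stand at 2.24 and 1.96 at 5 min and at -4.25 and -3.77 at 10 min, while ARG3 is below the pool at all 3 times.

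Cell wall genes of the hypoxic programme were among the lowest values. In the DAN/TIR family 5 of 6 measured members (83.3%, where 2.76% of all genes were lower) were at least 2-fold lower: TIR1 at -4.25, DAN1 at -3.77, TIR3 at -1.33, TIR2 at -1.28 and TIR4 at -1.07. At 5 min the same 5 genes had been at 2.24, 1.96, 1.92, 1.67 and 1.87. At 20 min they were at -2.83, -3.51, -2.07, -1.23 and -1.24. The values at 10 min were thus on the other side of the pool from those at 5 min and on the side of those at 20 min. DAN4 was at 0.46 (0.12 and 0.28 at 5 and 20 min). DAN2 and DAN3 were not analysed here. TIR4 and TIR2 are neighbours in the genome. Seripauperin genes, a family of related anaerobic proteins with near-identical copies whose features may share signal, had a median of -0.09 over 18 members. At least 2-fold lower was 1 of them (5.56%, where 2.76% of all genes were), PAU22 at -1.70, while PAU5 was at -0.83 and PAU3 at -0.42.

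Genes repressed by Rox1 had a median of -0.02 over 9 measured (0.29 with the self-hybridisation subtracted). None was at least 2-fold lower, where 2.76% of all genes were. HEM13, the coproporphyrinogen oxidase of heme synthesis, was lowest at -0.92, after 1.32 at 5 min and before -2.66 at 20 min. ANB1 was at -0.27, HMG2 at -0.24, CYC7 at -0.11, COX5B at -0.02, AAC3 at 0.12, FET4, a low-affinity iron importer, at 0.21, and OLE1, the fatty acid desaturase, at 0.78. OLE1, FET4, CYC7 and HMG2 were at -1.26, -1.65, -1.25 and -1.05 at 20 min. ROX1 itself, whose product represses them and itself, was 4.89-fold higher, at 2.29 (2.69 at 5 min, 0.72 at 20 min). Of the 12 regulators of oxygen and heme, ROX1 was the only one at 2-fold (8.33%, where 4.96% of all genes were in either direction). Of the Hap genes, which activate respiration, HAP4 was at 0.20 (1.19 at 5 min), HAP3 at 0.14, HAP1 at 0.00, HAP2 at -0.11 and HAP5 at -0.39. The sterol and fatty acid regulators UPC2, ECM22, MGA2, SPT23 and SUT1 were at -0.27, -0.06, -0.30, -0.26 and -0.36, and MOT3, a co-repressor of the hypoxic genes, at -0.06.

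The 9 measured genes of heme synthesis and breakdown had a median of -0.11 (0.14 in the self-hybridisation and -0.39 with it subtracted). None was 2-fold from the pool, where 4.96% of all genes were. After HEM13 came HEM14 at -0.43, HEM15 at -0.18, HEM3 at -0.15, HEM2 at -0.11, HEM12 at 0.04, HEM1 at 0.05 and HEM4 at 0.22. HMX1, the heme oxygenase that breaks heme down, was at 0.24. Ergosterol synthesis, which uses oxygen at several steps, had a median of 0.03 over 24 genes, against 0.40 at 5 min and -0.18 at 20 min. None of the 24 was at 2-fold, where 4.96% of all genes were. IDI1 (0.78), HMG1 (0.47) and ERG10 (0.47), of the early mevalonate steps, stood highest. ERG24 (-0.88), ERG26 (-0.38) and NCP1 (-0.31), which act after or beside the ring closure, stood lowest, and ERG24 was at -1.70 in the self-hybridisation.

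Yeast carries several proteins as a pair of genes, 1 used with oxygen and 1 without. In all 5 pairs examined, chosen with their values known, the aerobic gene had the higher ratio. CYC1, aerobic cytochrome c, was at 1.76 and CYC7 at -0.11. HYP2, the aerobic gene for translation factor eIF5A, was at 0.62 and ANB1 at -0.27. HMG1 was at 0.47 and HMG2 at -0.24, both encoding HMG-CoA reductase. PET9, the main mitochondrial ADP/ATP carrier, was at 0.73 and AAC3 at 0.12, and COX5A was at 0.25 and COX5B at -0.02, for a subunit of cytochrome oxidase. The differences ran from 0.28 for the COX5 pair to 1.87 for cytochrome c. The former is close to the 0.185 SD of a single feature, and a difference carries the error of 2 features. That SD comes from features of 1 sample and leaves out differences between flasks. In 3 pairs measured in the self-hybridisation 1 aerobic gene was higher. Pair members at 5 min put the aerobic gene higher in 2 of 5 pairs, and at 20 min in 5 of 5.

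Respiratory genes lay above the pool by small amounts. Of 27 measured genes of the respiratory chain 25 were above 0, with a median of 0.42 against -0.04 in the self-hybridisation. The median of this list was -0.03 at 5 min and -0.01 at 20 min, with 11 and 13 of the 27 above 0. At least 2-fold higher were 3 of them (11.1%, where 2.20% of all genes were). NDE1, the external NADH dehydrogenase, was at 1.87 (-0.19 at 5 min, 1.76 at 20 min), and GUT2, the mitochondrial glycerol-3-phosphate dehydrogenase, at 1.28. CYC1 was at -1.19 at 5 min and 3.16 at 20 min. COX6 (-0.44) and COX9 (-0.14), subunits of cytochrome oxidase, were below 0. ATP synthase genes were above 0 for 14 of 15, with a median of 0.45, and in the self-hybridisation their median was -0.48 (0.81 with it subtracted). ATP5, at -1.79, was the exception. It had no value at 20 min or in the self-hybridisation. Mitochondrial ribosomal protein genes were above 0 for 66 of 70, median 0.27, and none was at 2-fold, where 4.96% of all genes were. MRPL49 stood highest of them, at 0.79, and IMG1 lowest, at -0.07. Genes of the mitochondrial genome differed in sign, with OLI1 (ATP synthase subunit 9) at -0.95 and COX1 at 0.54, after -2.40 and -0.76 at 5 min.

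Sugar transport and acetate metabolism held several of the highest values. Of 11 measured hexose transporters of the HXT family 5 were at least 2-fold higher, where 2.20% of all genes were. They were HXT4 at 2.74, HXT7 at 1.98, HXT6 at 1.88, HXT2 at 1.85 and HXT3 at 1.59. HXT6 and HXT7 are near-identical neighbours with HXT3 beside them, so their features may share signal. The 5 genes had been at 2.25, 1.05, 0.96, 1.25 and 1.54 at 5 min, and at 20 min they were between 0.45 and 0.96. HXT1, a low-affinity transporter, was at -0.21. The glucose repressors MIG2 and MIG3 were at the pool, at -0.01 and -0.03, after 2.64 and 1.10 at 5 min, and MTH1, a co-repressor of the HXT genes, was at 0.22 after 1.73. Of 7 genes of acetate formation and activation, ALD4 (mitochondrial aldehyde dehydrogenase) was at 2.04 and ALD6 (the cytosolic, NADPH-making form) at 1.95, and ALD5, ALD3, ALD2, ACS1 and ACS2 were within 2-fold. The share at least 2-fold higher was thus 28.6%, where 2.20% of all genes were. Glycolytic and fermentative genes were above 0 for 20 of 23, median 0.18, beside 0.21 in the self-hybridisation. Subtracting the latter put the median at -0.0447 over the 14 genes measured in both. ADH5, an alcohol dehydrogenase, was the only one at 2-fold, at -3.18 (-0.46 at 5 min, -3.33 at 20 min). It makes up 4.35% of the list, where 2.76% of all genes were lower.

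The 3 lists that follow are of amino acid synthesis and also hold transport genes, such as MUP3, SAM3, MUP1, SUL2 and ORT1. They held 33 of the 168 lower genes (19.6%). Of their 91 measured members 33 were at least 2-fold lower, where 2.76% of all genes were. All 8 measured genes of arginine synthesis were below 0, with a median of -1.56 (self-hybridisation -0.15), and 7 were at least 2-fold lower (87.5%, where 2.76% of all genes were). ARG3, ornithine carbamoyltransferase, was at -3.65, ARG4, argininosuccinate lyase, at -2.81, ARG7 at -1.87, ORT1, the mitochondrial ornithine exporter, at -1.75, CPA1 at -1.38, ARG8 at -1.29 and ARG1 at -1.13. ARG2, which takes the first step, was within 2-fold at -0.83. ARG5,6 was not analysed here. CAR1, arginase, which breaks arginine down, was at 1.43 (1.58 at 5 min), and CAR2, the next step, at 0.48. Of the 7 genes of arginine breakdown and uptake 4 were above 0, with a median of 0.12, and CAN1, the arginine permease, was lowest at -0.88, followed by ALP1 (-0.60) and PRO3 (-0.14). ARG3, ARG4 and ARG7 were at -2.0, -1.45 and -0.99 at 5 min and -3.31, -3.38 and -2.25 at 20 min.

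Methionine synthesis and sulfur assimilation had a median of -0.66 over 33 genes, with 12 (36.4%, where 2.76% of all genes were) at least 2-fold lower and 0 higher. The sulfate route held MET16 (-2.23), MET22 (-1.64), SUL2, a sulfate importer (-1.56), MET5 (-1.44) and MET10 (-1.17), which serve the uptake of sulfate and its reduction to sulfide. The carbon side of the route held HOM3 (-1.96), MET2 (-1.84) and MET13 (-1.44). Importers of methionine and related compounds were MUP3 (-3.11), SAM3 (-1.53) and MUP1 (-1.20). The regulators MET28 and MET32, which work with Met4, were at -1.67 and -1.39, while MET4 itself was at 0.01. The pump SSU1, which exports sulfite, was at -2.50.

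The other amino acid routes had a median of -0.56 over 50 genes and 14 (28%, beside the same 2.76%) at least 2-fold lower, among them HIS7 (-1.77), LYS1 (-1.70), TRP3 (-1.55), LYS2 (-1.45), HIS4 (-1.35) and LYS21 (-1.34). The only member at least 2-fold higher was GDH1, the NADPH-dependent glutamate dehydrogenase, at 1.37. GCN4, the activator of these routes, was at 0.24 as a transcript. In purine synthesis, which shares one-carbon units with methionine, 4 of 20 (20%, beside the same 2.76%) were lower: MTD1 (-2.43), ADE4 (-1.73), ADE2 (-1.64) and the importer FCY2 (-1.08). In amino acid permeases, BAP3 (-1.08) was lower beside MUP3, SAM3 and MUP1, and GAP1, the general permease, was higher at 1.08. Of the 18 permeases 22.2% were thus lower and 5.56% higher, where 2.76% and 2.20% of all genes were. RTC2, a vacuolar exporter of basic amino acids, was at -3.17 (-2.41 at 5 min and -3.49 at 20 min).

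**Figure D4:**
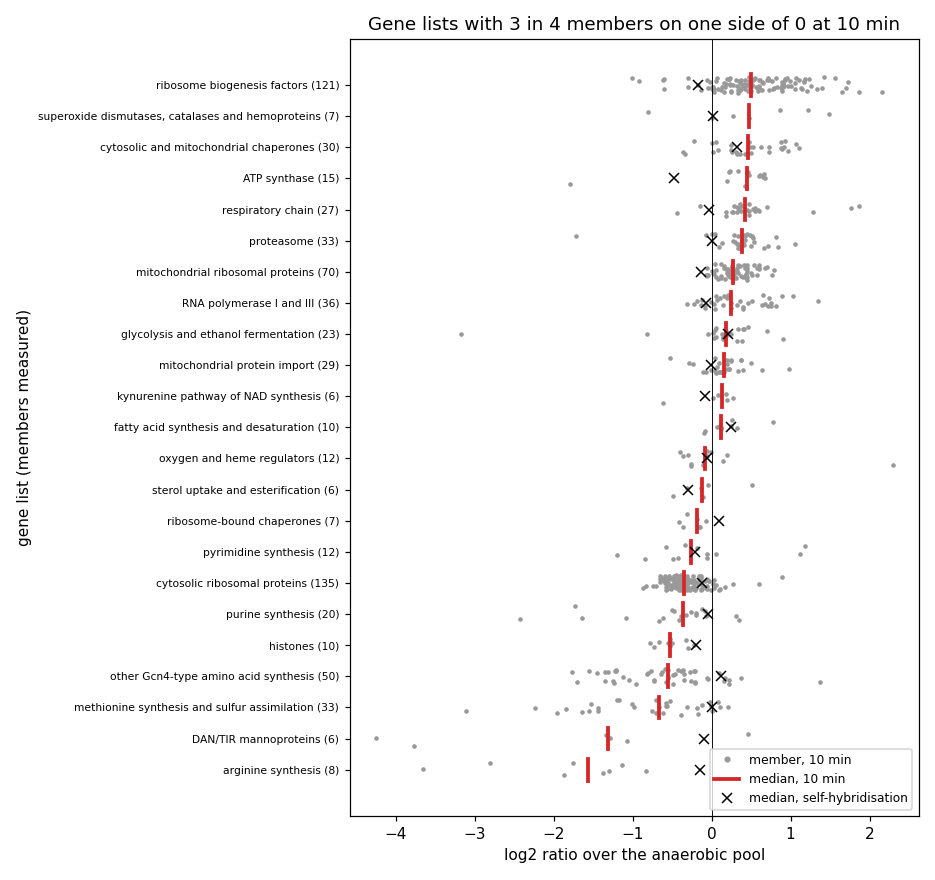
Log2 ratio at 10 min (x axis) for the 23 gene lists of 6 or more measured genes in which at least 3 in 4 members lie on 1 side of 0 (y axis, with the number measured). Grey dots are members, red bars the median at 10 min, and crosses the median in the self-hybridisation. Arginine synthesis has the lowest median, -1.56, and ribosome biogenesis the highest, 0.50.

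Genes of ribosome assembly and those of the ribosome itself were on different sides. Of 121 measured ribosome biogenesis factors 109 were above 0, median 0.50 against -0.17 in the self-hybridisation, and 21 (17.4%, where 2.20% of all genes were) were at least 2-fold higher. REI1 (2.15) and the helicase DBP8 (1.87) stood highest, followed by UTP9 (1.72), UTP5 (1.70), NOP15 (1.65) and NOG2 (1.56), while UTP14 was at -1.01 and NOP2 at -0.92. The 135 cytosolic ribosomal protein genes had a median of -0.35 (-0.42 at 5 min, 0.16 at 20 min, -0.12 in the self-hybridisation and -0.22 with the latter subtracted). Of them 125 were below 0 and none was at 2-fold, where 4.96% of all genes were. RPP1A, a stalk protein, was lowest at -0.87, and RPL22B highest at 0.89. Genes of RNA polymerases I and III were above 0 for 28 of 36, with BRF1, an initiation factor of polymerase III, at 1.35 and RPA12 at 1.03. IFH1, a co-activator of ribosomal protein genes, was at 1.05. All 10 histone genes were below 0, median -0.53 (self-hybridisation -0.20, and -0.32 with it subtracted). In the self-hybridisation, too, only 1 of 9 measured histone genes was above 0. At 10 min all 7 ribosome-bound chaperones were below 0, median -0.18 (-0.42 with the self-hybridisation subtracted). Cytosolic and mitochondrial chaperones were above 0 for 27 of 30, median 0.46, beside 0.32 in the self-hybridisation and 0.21 with it subtracted. SSA4 at 1.11 and YDJ1 at 1.07 were the 2-fold members (6.67%, where 2.20% of all genes were higher). In the proteasome 31 of 33 genes were above 0, median 0.38, with RPN5 at 1.05 and PUP1 at -1.72, a gene with no value at 5 min. These are 3.03% of the list each way, where 2.20% of all genes were higher and 2.76% lower.

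Several of the highest and lowest genes were in none of the lists described above. RPG1 is the highest of 37 cytosolic translation factors (list median 0.16), and ATG41 the lowest of 25 autophagy genes (list median -0.10). YLR108C, a gene of unknown function beside AHP1, was at 3.42 (3.0 at 5 min, 2.04 at 20 min). STE20, a signalling kinase, was at 3.19, BUD2, a GTPase activator of bud-site selection, at 2.53, and RPG1, a subunit of initiation factor eIF3, at 2.08. STE20 and RPG1 were at 0.18 and -0.06 at 5 min and 1.96 and 1.61 at 20 min. YGR161W-B, a transposon open reading frame, was at 2.05. On the lower side DST1, the elongation factor TFIIS, was the lowest named gene at -4.40, a 21.1-fold ratio (-2.25 at 5 min, -3.90 at 20 min, no value in the self-hybridisation). ARO5 was at -3.11, ATG41, an autophagy gene, at -2.86, TMT1, a methyltransferase, at -2.70 and NRS1 at -2.29. The lower side also held genes with no value at some of the other times. MATALPHA1 (-2.64, a mating-type regulator), PRM6 (-2.46) and YOL103W-A (-2.24) had no 5 min value, PSF2 (-2.30) was at -0.55 and -0.29 at 5 and 20 min, and NOB1 (-2.25), a nuclease of ribosome assembly that is not in the list above, had no value in any other sample. PRM6 was at 1.08 at 20 min. Of the 20 highest named genes 7 had no value in the self-hybridisation, and 7 of the 20 lowest.

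**Figure D5:**
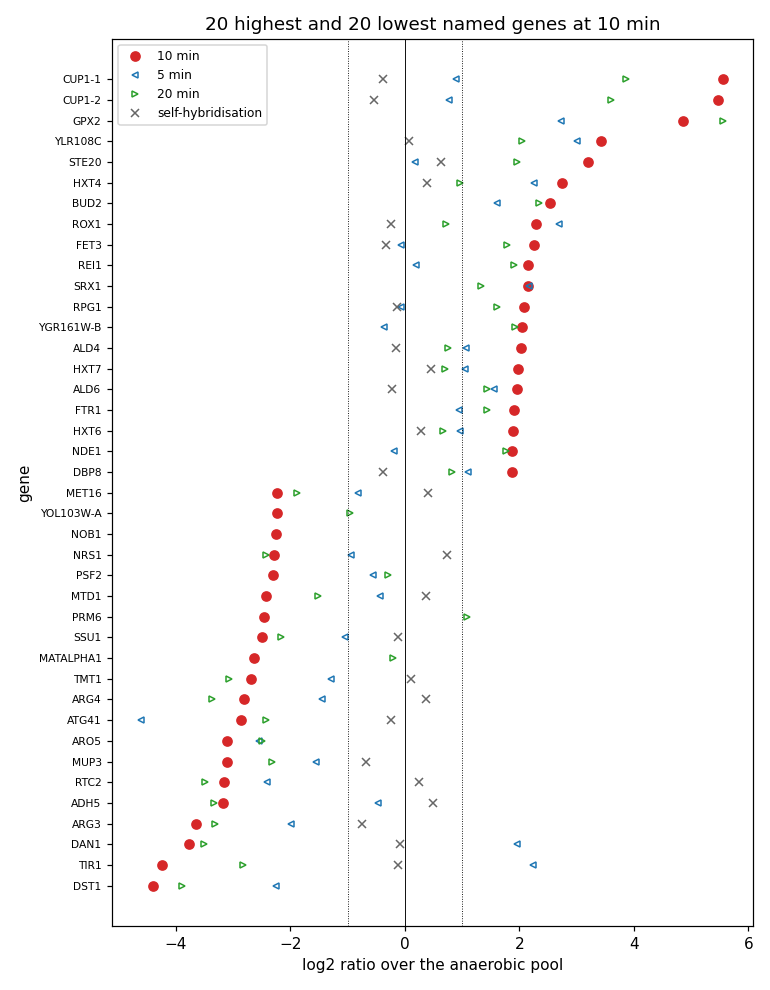
Log2 ratio over the anaerobic pool (x axis) of the 20 highest and 20 lowest named genes at 10 min (y axis), as red circles, with 5 min (blue), 20 min (green) and the self-hybridisation (grey crosses). The dotted lines mark 2-fold. The self-hybridisation lies within 2-fold wherever a cross is drawn, and CUP1-1 and DST1 are the ends at 5.56 and -4.40.

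Just inside the 2-fold limit on the higher side were CHO1 (1.01), YHR033W (1.02) and GIC1 (1.02), and just outside it EFG1, NCE103 and UTP23 (all 1.0 after rounding). On the lower side PXP2 (-1.0), STR2 (-1.0) and YJL218W (-1.01) were inside and YIG1, GCY1 and PHM8 (-0.99 for all) outside. UTP23 stood at -2.25 in the self-hybridisation.

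As a set the 134 higher genes had a median of 0.54 at 5 min (132 measured), where 30 were at least 2-fold higher and 4 lower, and 0.97 at 20 min, where 66 were higher and 0 lower. In the self-hybridisation 63 of them had a median of -0.08. The 168 lower genes had a median of -0.59 at 5 min (137 measured) and -0.91 at 20 min (162 measured), with 25 and 74 at least 2-fold lower, and of 0.02 in the self-hybridisation (82 measured). These values share the pool with the 10 min sample, and the genes were picked by their 10 min ratio. The share of all genes at 2-fold was not counted at 5 or 20 min, so the counts there have no background beside them. Of 5514 pairs of genes adjacent in genome order, with genes lacking a value or a symbol passed over, 13 were both higher and 6 both lower. Of the 5531 genes with a symbol 119 were higher and 136 lower, and the number of pairs expected from this was not computed. The pairs included ALD4 beside GDH1 and SRX1 beside CYT2 on the higher side, and HIS1 beside FCY2 on the lower. The higher pairs also held the CUP1 run and HXT7, HXT6 and HXT3, whose features may share signal. The medians of the 16 chromosomes lay between -0.09 and 0.08.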

How the data were processed

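Total RNA was hybridised on 2-colour arrays. The authors deposited natural log ratios that they had already normalized and condensed over a dye-swap pair, read as natural log from the values since no label gives the base (the lowest, -4.6051702, is the natural log of 0.01). How they normalized, corrected background or filtered is not stated in the labels. Here each value was put on the log2 scale by dividing by 0.6931 (the natural log of 2). The platform table gives 1 symbol to 5754 of 6495 features, several to 0 and none to 741. Symbols were matched to the R64 table of RefSeq, used for names and neighbours, and 0 changed. Features of a gene were averaged. No filter was set. The 10 min sample is 1 of 6 samples, so no test was run. Precision is limited by the number of arrays. The 16 genes with 2 features show only the scatter between features within the sample.

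Python 3.11.15, numpy 2.4.6, pandas 2.3.3 and matplotlib 3.10.9 were used, and the counting was tested on simulated data. Members and the 59 gene lists were chosen with earlier results of these data known. Named are the 20 highest and 20 lowest genes with a symbol, up to 6 members each way of a list at least 2-fold from the pool or else up to 3 farthest from 0, all members of the hypoxic, heme, antioxidant, copper and arginine lists, and the 3 genes on each side of each 2-fold limit. Genes named outside this rule, for comparison, were chosen after their values were seen. A list median has no test and stands beside that of all genes, which was 0. Alternatives were log2 in place of natural log, centring, the genes with other values, first features, subtraction of the self-hybridisation, and other folds. A search of promoters for motifs and a check of genes with identical proteins were not run.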

Additional observations from a re-analysis of the deposited data

Results flagged for a closer look

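A group of genes lay at least 2-fold on one side of the pool at 5 min and at least 2-fold on the other at 10 min. These are single samples of separate flasks, and the difference was not tested. TIR1 was at -4.25 at 10 min beside 2.24 at 5 min, and DAN1 at -3.77 beside 1.96. TIR3 was at -1.33 beside 1.92, TIR2 at -1.28 beside 1.67 and TIR4 at -1.07 beside 1.87. The median of the 6 measured DAN/TIR genes was -1.31 beside 1.90. FIT3 was at -1.57 beside 1.44, and YML100W-A at -1.13 beside 1.35. In the other direction, CYC1 was at 1.76 beside -1.19, URA7, a CTP synthase gene, at 1.12 beside -1.08, and ARA1, a dehydrogenase gene, at 1.41 beside -3.17. The self-hybridisation gave -6.64 for ARA1, the lowest value of the table.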

How the results depend on the processing

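Counts of genes at least 2-fold higher and lower were 134 and 168. Centring on the median left 134 and 168, first features 134 and 168, genes without a symbol left out 119 and 136, and genes 2-fold in the self-hybridisation left out 133 and 164. Genes with a value at 3 or more of the other aerated times, an alternative chosen after seeing the data, gave 132 and 139. They were 46 and 76 with the values read as log2, 63 and 82 over genes with a self-hybridisation value, 62 and 80 over genes with a value in all 6 samples, and 414 and 483 at 1.5-fold and 39 and 64 at 3-fold. With the self-hybridisation subtracted, 211 were higher and 139 lower of 3510 genes. Each such difference also carries the error of the 1 self-hybridisation array. Of 59 list medians 30 were above 0, and 29 to 34 under the alternatives. Of 528 recomputed list medians 420 stayed within 1.5 times, and 19, of 13 lists, changed sign, 10 of them with the self-hybridisation subtracted. Among lists with at least 75% of members on 1 side these were oxygen and heme regulators to 0.103 (8 genes), sterol uptake and esterification to 0.0738 (2 genes), and glycolysis and ethanol fermentation to -0.0447 (14 genes). The self-hybridisation covers fewer genes, and the cause of these shifts was not tested. Genes with identical proteins left out was not run. No paired analysis was possible because each time has 1 sample and the labels give no replicate numbers. Single values have no error, so a ratio near 2-fold may fall on either side.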

Other observations

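Several gene groups stood near the pool as a whole and held single genes beyond 2-fold. Stress and reserve carbohydrate genes of the Msn2/Msn4 type had a median of 0.09 over 35 genes (-0.01 with the self-hybridisation subtracted). At least 2-fold higher were 2 (5.71%, where 2.20% of all genes were), the small heat shock genes HSP12 (1.18) and HSP26 (1.11). GLG1, a glycogen primer, was lowest at -0.91. At 20 min the median of that list was -0.54. KAR2, the endoplasmic reticulum chaperone, was at 1.03 and FLO11, a cell surface flocculin, at 1.11. ATG39, a receptor for autophagy of the nucleus, was at 1.17. In pyrimidine metabolism FUR4, the uracil permease, was at 1.18 and URA7 at 1.12, and URA4 was at -1.20. CIT2, the peroxisomal citrate synthase, was at -1.90, and MDH2, the cytosolic malate dehydrogenase, at -1.61 with no value at 5 or 20 min. FUS3, the pheromone response kinase, was at -1.41 (-0.04 at 5 min and 0.23 at 20 min), and QDR3, a multidrug exporter, at -1.07.

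None of 19 cyclin and cell cycle genes was at 2-fold, where 4.96% of all genes were. The highest, 6 of which are read at the G1 to S transition, were these 7. RNR1, for ribonucleotide reductase, was at 0.90, POL30, for the sliding clamp, at 0.88, PCL1 at 0.78, CDC5, a kinase of mitosis, at 0.65, CLN1 at 0.65, CLB6 at 0.63 and CLN2 at 0.61. At 5 min these 7 genes were at -0.71, -0.65, -0.28, 0.07, -0.40, -0.69 and -1.03, so all except CDC5 stood below the pool there. At 20 min they were at 0.27, 0.63, 0.23, 0.22, 0.13, 0.47 and 0.49. In the zinc regulon ZRT1, the high-affinity importer, was at 0.06 after -1.64 at 5 min, and its activator ZAP1 at 0.03 after -1.24. Thiamine and vitamin B6 genes had a median of -0.26 over 19 genes. Only 4 of them were measured in the self-hybridisation, with a median of -0.54 there. At 10 min these 4 had a median of -0.21, and of 0.51 with the self-hybridisation subtracted. The phosphate regulon (15 genes), the nitrogen catabolite repressed genes (19) and the peroxisome genes (18) had medians of -0.10, -0.07 and -0.03.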
